A study of Mus musculus with 20 samples.

Results

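Genes of neurotrophic signalling, 8 in number, were followed in mouse frontal cortex and hippocampus: the ligands Bdnf and Ntf3, the tyrosine kinase receptors Ntrk2 and Ntrk3, the receptors Ngfr and Sort1, and the receptors Gfra1 and Gfra2. They were picked by gene symbol from the count tables of the 2 regions, and 8 of 8 were found among the 17148 genes listed in both. Total RNA was sequenced from Ncs1+/+ (wild-type) and Ncs1-/- (knockout) mice of the C57Bl6/J strain, with no treatment named. Ncs1 encodes the neuronal calcium sensor NCS1. Each genotype gave 5 libraries of either region, 20 in all in 4 groups. Age, sex and the design of the deleted allele are not stated in the labels. Nor do they say whether 1 animal gave 1 library, so the p-values below speak of the scatter of these libraries, part of which may be technical. All 8 genes passed the filter on low counts in each comparison.

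Neurotrophins are secreted as precursors and, once cleaved, act at synapses and cell bodies as survival and plasticity factors. BDNF signals through TrkB, encoded by Ntrk2, and neurotrophin-3, encoded by Ntf3, signals mainly through TrkC, encoded by Ntrk3. The low-affinity receptor p75, encoded by Ngfr, pairs with sortilin, encoded by Sort1, to bind the uncleaved precursors. Gfra1 and Gfra2 encode the membrane-anchored coreceptors that bind GDNF and neurturin and present them to the RET kinase. Counts per gene add up all transcript forms, so full-length TrkB and TrkC, which carry a kinase, were not separated from the truncated forms that lack it.

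The promoters of both ligands are shown because these genes were the secreted members and Ntf3 had the largest regional difference of the 8. RefSeq windows of the 250 bases before a transcript start (assembly GRCm38.p6) were found for 5 of 8 members. There were 7 windows for Bdnf, which has many alternative first exons, 2 for Ntf3 and 1 each for Ntrk2, Ngfr and Gfra1. Each was searched on both strands for TGACG, the half-site bound by CREB-family factors, for the full site TGACGTCA, which contains it, for the E-box CACGTG, bound by USF factors, and for the GC box GGGCGG, bound by Sp factors. TGACG was found in 1 of the 7 Bdnf windows and CACGTG in 1 of the 2 Ntf3 windows, and neither in another member's window. TGACGTCA was found in 0 of them, and GGGCGG in 2 Bdnf windows, 2 Ntf3 windows and the Ngfr window. Over 32817 windows of the same length the shares with a match were 17.7% for TGACG, 1.55% for TGACGTCA, 6.02% for CACGTG and 32.7% for GGGCGG, so a match here describes letters and not a bound site. Of the Bdnf windows only the 1 with TGACG is printed, picked for that match, whereas both Ntf3 windows are printed. Capitals mark a match of TGACG or CACGTG on either strand, in the Bdnf window at chr2:109692186-109692435 (plus strand) and the Ntf3 windows at chr6:126166745-126166994 and chr6:126164961-126165210 (minus strand).
Bdnf: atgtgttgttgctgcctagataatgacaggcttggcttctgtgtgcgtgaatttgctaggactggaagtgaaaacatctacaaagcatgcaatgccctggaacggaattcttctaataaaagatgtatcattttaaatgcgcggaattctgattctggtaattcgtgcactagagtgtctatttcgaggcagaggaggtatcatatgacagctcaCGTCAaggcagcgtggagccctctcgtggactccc
Ntf3, first window: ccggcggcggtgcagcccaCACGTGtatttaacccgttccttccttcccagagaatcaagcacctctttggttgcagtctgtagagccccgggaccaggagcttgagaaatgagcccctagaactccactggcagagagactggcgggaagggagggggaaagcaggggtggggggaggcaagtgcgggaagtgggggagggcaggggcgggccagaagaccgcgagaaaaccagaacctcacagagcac
Ntf3, second window: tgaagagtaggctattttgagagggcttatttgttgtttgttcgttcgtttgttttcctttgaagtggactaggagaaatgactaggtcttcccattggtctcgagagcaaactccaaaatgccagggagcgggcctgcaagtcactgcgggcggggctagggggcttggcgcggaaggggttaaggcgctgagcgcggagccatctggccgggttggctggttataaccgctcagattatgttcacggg

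Library totals ran from 16.6 to 34.6 M counts. Ncs1 itself was at 368 ± 17.4 CPM (counts relative to the library total, TMM-scaled) in wild-type cortex and 259 ± 3.68 CPM in knockout cortex, and at 441 ± 17.3 and 300.3 ± 21.2 CPM in hippocampus (SD, n = 5 each), so transcript from the locus remained in the knockout. Cortex libraries carried the 10 of 10 striatal neuron markers that were looked for, summing to between 1083 and 1987 CPM against 194 to 252 CPM in hippocampus. The choroid plexus transcript Ttr was at 2000.1 and 3119 CPM in wild-type hippocampus replicate 4 and knockout hippocampus replicate 2. It was at 319.6 CPM in knockout hippocampus replicate 4 and at 206.7 CPM in knockout cortex replicate 1. The other cortex libraries were at 1.76 CPM or below and the other hippocampus libraries at 28.9 CPM or below. The part of such admixture in the differences below was not tested, and in bulk tissue fewer cells of a type and less RNA per cell cannot be told apart. The sample names in the labels end differently for cortex and for hippocampus, so anything that went with that ending cannot be told apart from region.

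The first question was how the 8 genes differ between the regions. In wild type, 4 of 8 were higher in hippocampus (Ntf3, Gfra1, Ntrk3 and Sort1) and 2 were lower (Gfra2 and Ntrk2) by edgeR's quasi-likelihood test with Benjamini-Hochberg adjustment at 0.05. In knockout 5 were higher, the same 4 and Bdnf, and the same 2 were lower. Over all tested genes 18.8% were called higher and 20.7% lower in wild type, 39.5% of 14849 in all, and 19.2% and 19.6%, 38.8% of 15032 in all, in knockout. The median log2 fold change of the 8 genes was 0.27 in wild type and 0.26 in knockout, beside 0.0071 and 0.013 over all genes tested. Ranges of the 5 libraries a region did not overlap for 5 of 8 genes in wild type (3 higher and 2 lower) and for 7 of 8 in knockout (5 higher and 2 lower). Over all genes they were apart for 29.3% in wild type (14.0% higher, 15.3% lower) and for 29.8% in knockout (14.7% higher, 15.1% lower).

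**Figure D1:**
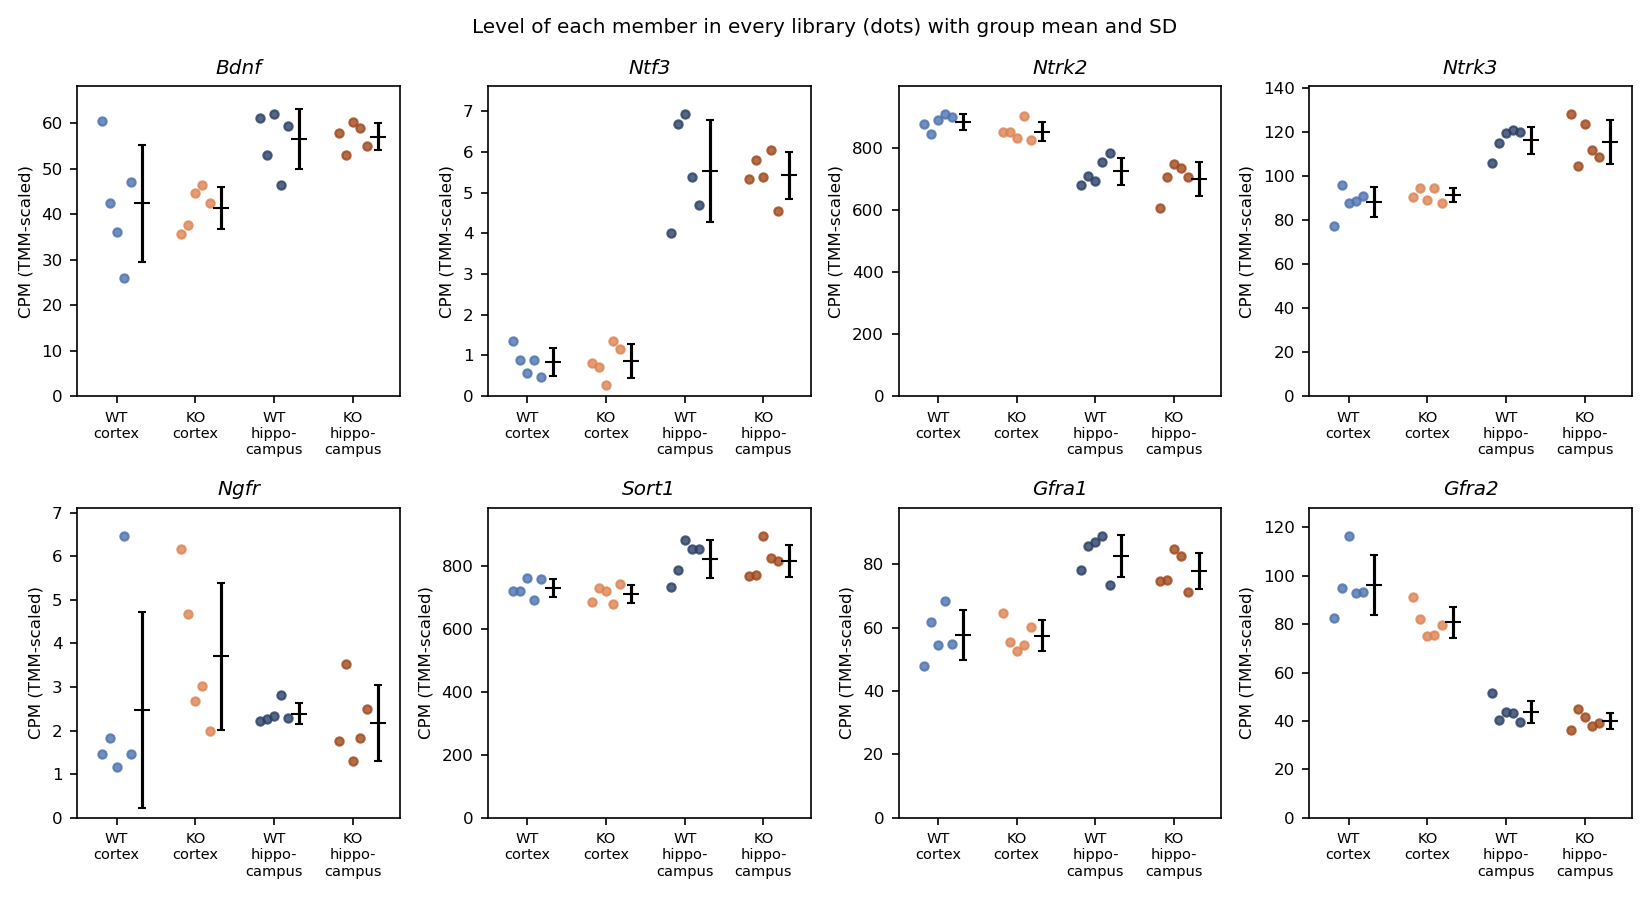
Level of each of the 8 genes in CPM (linear axis from 0) in the 20 libraries, 1 dot per library, with the group mean and SD (n = 5) as a bar to the right of each group. Ntf3 lies at 4.02 CPM or above in each hippocampus library and at 1.36 CPM or below in each cortex library, Gfra2 shows the opposite order, and 1 wild-type cortex library stands apart for Ngfr.

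Ntf3, on chromosome 6 from 126101412 to 126166745 (coordinates of mm10 as deposited, here and below), encodes neurotrophin-3. In wild-type cortex replicates 1 to 5 it was at 1.35, 0.895, 0.579, 0.876 and 0.467 CPM, and in wild-type hippocampus at 4.02, 6.68, 6.92, 5.38 and 4.68 CPM. In knockout cortex it was at 0.814, 0.719, 0.262, 1.36 and 1.15 CPM, and in knockout hippocampus at 5.33, 5.79, 5.38, 6.06 and 4.55 CPM. All hippocampus libraries lay above all cortex libraries, and the genotypes overlapped in both regions. The log2 fold change of hippocampus over cortex was 2.73 (SE 0.25, adjusted p 1.71e-06), or 6.63-fold, in wild type and 2.64 (SE 0.26, adjusted p 2.99e-06), or 6.25-fold, in knockout. Cortex levels rest on 5 to 27 counts per library, against 83 to 179 in hippocampus. Between genotypes the log2 fold change was 0.07 (SE 0.37) in cortex and -0.02 (SE 0.15) in hippocampus, neither past the threshold (adjusted p 0.952 and 0.995).

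Bdnf, on chromosome 2 from 109674700 to 109727044 and 78.4 Mb from Ncs1 on the same chromosome, encodes brain-derived neurotrophic factor, whose transcription follows neuronal activity. Wild-type cortex replicates 1 to 5 were at 60.4, 42.6, 36.1, 25.9 and 47.1 CPM and knockout cortex at 35.7, 37.6, 44.7, 46.4 and 42.4 CPM. Wild-type hippocampus was at 61.2, 53.1, 62.0, 46.4 and 59.5 CPM and knockout hippocampus at 57.9, 53.0, 60.3, 58.9 and 55.1 CPM. The wild-type cortex libraries spread over more than the whole range of the knockout cortex libraries, and regions overlapped in wild type but not in knockout. In knockout the log2 fold change of hippocampus over cortex was 0.46 (SE 0.07, adjusted p 0.000189), or 1.37-fold. In wild type it was 0.40 (SE 0.17) and did not pass with edgeR (adjusted p 0.081). DESeq2 (adjusted p 0.0495), limma-voom (0.0494) and a single edgeR fit of all 20 libraries (0.0242) did call it, as did edgeR without wild-type cortex replicate 1, at 0.57 (adjusted p 0.00907). The difference between the genotypes' regional effects was 0.05 (SE 0.20, p 0.818), so the 2 genotypes were not shown to differ in it. Between genotypes Bdnf had log2 fold changes of -0.03 (SE 0.17) in cortex and 0.02 (SE 0.07) in hippocampus (adjusted p 0.952 and 0.992).

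The spread of Bdnf was set beside genes known to be induced by BDNF and activity in neurons, a list of 16 that does not hold Bdnf and includes Arc, Egr1, Fos, Nptx2 and Vgf. This relation, the same in hippocampus, and one for Ngfr below were chosen after the values had been seen, and p-values were adjusted over these 3. The adjustment does not account for that choice. Across the 10 cortex libraries the log2 level of Bdnf and the mean log2 level of the list had Pearson's r of 0.897 and Spearman's rho of 0.806 (permutation p 0.00022 and 0.00708, adjusted 0.00042 and 0.0106). Without the 2 libraries farthest from the median of the list, r was 0.761, and r of the deviations from the group means was 0.910. In hippocampus r was 0.645 and rho 0.527 (permutation p 0.0422 and 0.122, adjusted 0.0422 and 0.122), and r fell to 0.22 without the 2 farthest libraries, so the relation there rests on those 2. Within single genotypes, 5 libraries each, r was 0.978 in wild-type and 0.677 in knockout cortex. Between regions 0 of 16 genes were called higher and 10 lower in wild-type hippocampus, and 1 higher and 11 lower in knockout hippocampus, with medians of -0.62 and -0.67. Over all genes 18.8% were called higher and 20.7% lower in wild type, and 19.2% and 19.6% in knockout. Npy, which encodes neuropeptide Y, had a log2 fold change of -0.93 in wild type, and the synaptic genes Homer1 and Nptx2 had -0.87 and -1.05, with values of -0.98, -0.80 and -0.96 in knockout.

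**Figure D2:**
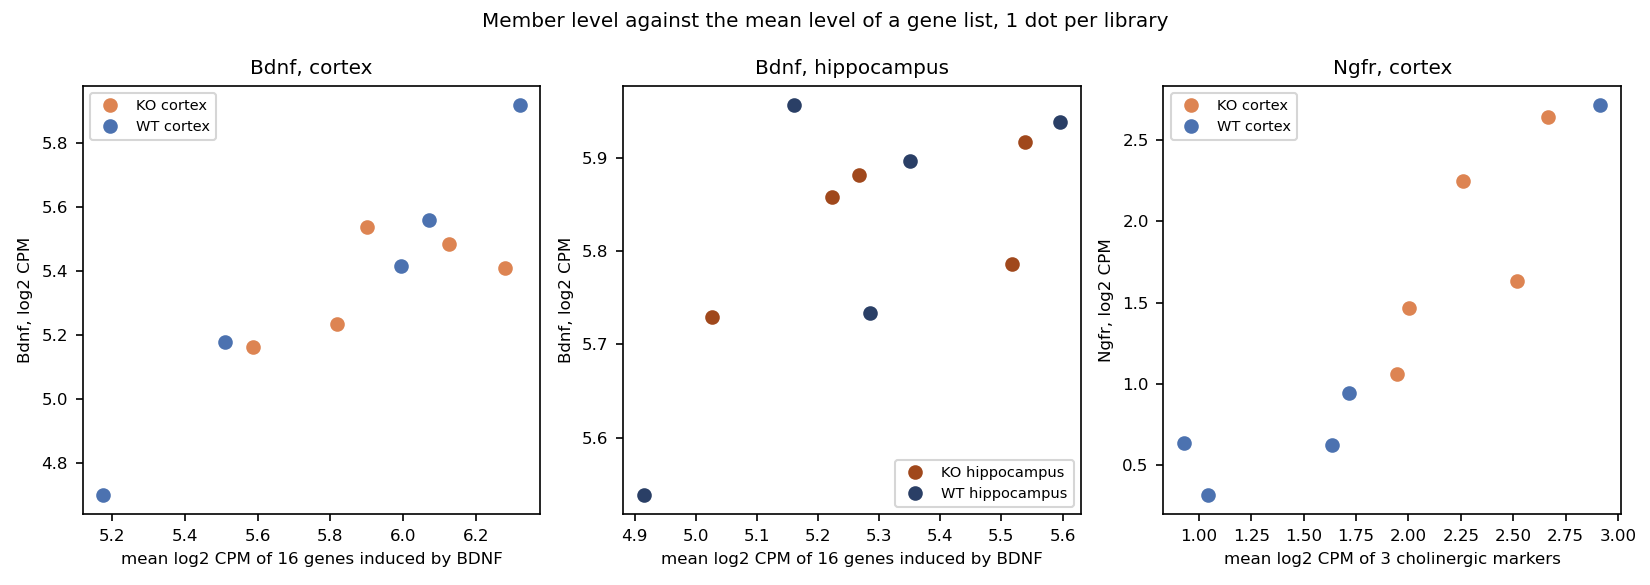
Log2 CPM of Bdnf (left and middle) and Ngfr (right) on the vertical axis against the mean log2 CPM of a gene list on the horizontal axis, 1 dot per library, coloured by genotype, for cortex, hippocampus and cortex. In cortex Bdnf goes with the 16 genes induced by BDNF (r 0.897) and Ngfr with 3 cholinergic markers (r 0.914), while the hippocampus dots are looser (r 0.645).

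Ntrk2, on chromosome 13 from 58806569 to 59133971, encodes TrkB, the BDNF receptor of neurons and, in truncated form, of astrocytes. It ranged from 845 to 909 CPM in wild-type cortex, from 825 to 902 in knockout cortex, from 682 to 785 in wild-type hippocampus and from 608 to 747 in knockout hippocampus. No hippocampus library reached a cortex library, whereas genotypes overlapped. The regional log2 fold change was -0.30 (SE 0.05, adjusted p 0.000158) in wild type and -0.29 (SE 0.05, adjusted p 0.00085) in knockout, a level 1.23-fold and 1.22-fold lower in hippocampus. Knockout against wild type gave -0.05 (SE 0.04) in cortex and -0.04 (SE 0.06) in hippocampus, neither past the threshold (adjusted p 0.516 and 0.991).

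Ntrk3, on chromosome 7 from 78192114 to 78577839, encodes TrkC, the receptor of neurotrophin-3. It ranged from 77.3 to 95.7 CPM in wild-type cortex, from 87.6 to 94.7 in knockout cortex, from 106 to 121 in wild-type hippocampus and from 105 to 128 in knockout hippocampus. Each hippocampus library was above each cortex library. Ntrk3 was 1.30-fold higher in wild-type hippocampus (log2 fold change 0.38, SE 0.06, adjusted p 0.000151) and 1.26-fold higher in knockout hippocampus (0.33, SE 0.06, adjusted p 0.000442). The receptor and its ligand Ntf3 were thus both higher in hippocampus, by 1.30-fold and 6.63-fold in wild type. Genotype log2 fold changes of Ntrk3 were 0.05 (SE 0.05) in cortex and -0.0023 (SE 0.06) in hippocampus (adjusted p 0.649 and 0.998).

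Ngfr, on chromosome 11 from 95568821 to 95587699, encodes p75, which in adult forebrain is known as a receptor of basal forebrain cholinergic neurons. Wild-type cortex replicates 1 to 5 were at 1.46, 1.84, 1.16, 6.48 and 1.45 CPM and knockout cortex at 6.16, 4.67, 2.68, 3.02 and 1.997 CPM, on 26 to 133 counts per library. Wild-type hippocampus was at 2.23, 2.27, 2.34, 2.83 and 2.28 CPM and knockout hippocampus at 1.76, 3.54, 1.29, 1.82 and 2.49 CPM. In each hippocampus group Ngfr was highest in the library highest in Ttr, wild-type replicate 4 and knockout replicate 2. Below these the orders differed. Knockout hippocampus replicate 4, at 319.6 CPM of Ttr, had less Ngfr (1.82 CPM) than replicate 5 (2.49 CPM), at 11.3 CPM of Ttr. In cortex, knockout replicate 1 was highest of its group in both, whereas wild-type replicate 4, highest in Ngfr, had 0.243 CPM of Ttr. The part of choroid plexus tissue in the Ngfr values was not tested. Wild-type cortex replicate 4 stood above the other 4 wild-type cortex libraries and above each knockout cortex library, and all groups overlapped. With all libraries no comparison of Ngfr passed: the regional log2 fold change was -0.06 (SE 0.41, adjusted p 0.919) in wild type and -0.77 (SE 0.32, adjusted p 0.0733) in knockout, and the genotype values were 0.59 (SE 0.44, adjusted p 0.55) in cortex and -0.12 (SE 0.23, adjusted p 0.991) in hippocampus. Without wild-type cortex replicate 4 the wild-type regional value turned to 0.68 and was called (adjusted p 0.0077), and the cortex genotype value was 1.33, not called (adjusted p 0.239). The knockout regional difference was called by DESeq2 (-0.77, adjusted p 0.0429) and by edgeR without knockout cortex replicate 5 (-0.92, adjusted p 0.0366) or without knockout hippocampus replicate 2 (-0.997, adjusted p 0.0227).

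Markers of cholinergic neurons, listed as those of basal forebrain, went with Ngfr in cortex. These markers do not say which cholinergic cells carried them. The list used held 4 genes, of which 3 were measured in both regions: Chat, which makes acetylcholine, and the transporters Slc5a7 and Slc18a3. Their summed level ranged from 7.65 to 29.0 CPM in wild-type cortex and from 15.01 to 24.81 CPM in knockout cortex, but only from 0.890 to 1.40 and from 0.793 to 1.59 CPM in the hippocampus groups. Across the 10 cortex libraries Ngfr and the mean log2 level of the 3 markers had Pearson's r of 0.914 and Spearman's rho of 0.952 (permutation p 0.00028 and 0.00012, adjusted 0.00042 and 0.00036), and r was 0.906 without the 2 farthest libraries. The correlation of deviations from the group means was 0.889. As said above, this relation was chosen after the values had been seen, and its p-values do not account for that choice. In cortex 4 of 4 markers had a positive genotype value, median 0.52, and 0 were called by edgeR or at an unadjusted p under 0.05. Chat, singled out after its values were seen, was highest of the wild-type cortex libraries at 5.21 CPM in replicate 4, the library in which Ngfr was at 6.48 CPM, and lowest at 1.01 CPM. In hippocampus, where Ngfr was still at 1.29 to 3.54 CPM, Chat was at most 0.145 CPM. The part of cholinergic tissue in the Ngfr values was not tested.

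Sort1, on chromosome 3 from 108284064 to 108361520, encodes sortilin, a sorting receptor that traffics BDNF and binds its precursor with p75. It ranged from 689 to 761 CPM in wild-type cortex, from 677 to 743 in knockout cortex, from 732 to 881 in wild-type hippocampus and from 768 to 895 in knockout hippocampus. Regions overlapped in wild type and were apart in knockout. Its regional log2 fold change was 0.16 (SE 0.05, adjusted p 0.0327), or 1.11-fold, in wild type and 0.19 (SE 0.05, adjusted p 0.00646), or 1.14-fold, in knockout. The wild-type call was lost when any 1 of wild-type cortex replicates 1, 2 and 4 or wild-type hippocampus replicates 3, 4 and 5 was left out, with adjusted p from 0.0527 to 0.0817. Genotype values were -0.03 (SE 0.04) in cortex and -0.0018 (SE 0.06) in hippocampus (adjusted p 0.695 and 0.999).

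Gfra2, on chromosome 14 from 70890107 to 70979841, encodes the preferred coreceptor of neurturin. Wild-type cortex replicates 1 to 5 were at 82.7, 94.9, 117, 92.9 and 93.5 CPM and knockout cortex at 91.2, 82.0, 74.96, 75.7 and 79.9 CPM. Wild-type hippocampus was at 51.5, 40.4, 43.5, 43.4 and 39.6 CPM and knockout hippocampus at 36.1, 44.9, 41.6, 38.0 and 38.9 CPM. Every hippocampus library was below every cortex library. Gfra2 was 2.23-fold lower in wild-type hippocampus (log2 fold change -1.16, SE 0.09, adjusted p 5.77e-07) and 2.03-fold lower in knockout hippocampus (-1.02, SE 0.07, adjusted p 8.5e-08). It was also the member with the smallest genotype p in each region: in cortex 80.7 ± 6.54 CPM in knockout against 96.1 ± 12.4 CPM in wild type (SD, n = 5 each). The log2 difference was -0.25 (SE 0.08, unadjusted p 0.00688). That difference did not pass (edgeR adjusted p 0.235), wild-type replicate 1 lay within the knockout range, and over the alternatives that gave an adjusted p it stayed between 0.0805 and 0.468. In hippocampus the value was -0.12 (SE 0.08, adjusted p 0.991).

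Gfra1, on chromosome 19 from 58235581 to 58455399, encodes the preferred coreceptor of GDNF. It ranged from 47.9 to 68.5 CPM in wild-type cortex, from 52.6 to 64.6 in knockout cortex, from 73.3 to 89.0 in wild-type hippocampus and from 71.4 to 85.0 in knockout hippocampus. Hippocampus libraries all lay above cortex libraries. The regional log2 fold change was 0.51 (SE 0.09, adjusted p 0.000444) in wild type and 0.43 (SE 0.07, adjusted p 0.000167) in knockout, opposite in sign to Gfra2. Genotype values were -0.0023 (SE 0.09) in cortex and -0.08 (SE 0.07) in hippocampus (adjusted p 0.993 and 0.991).

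**Figure D3:**
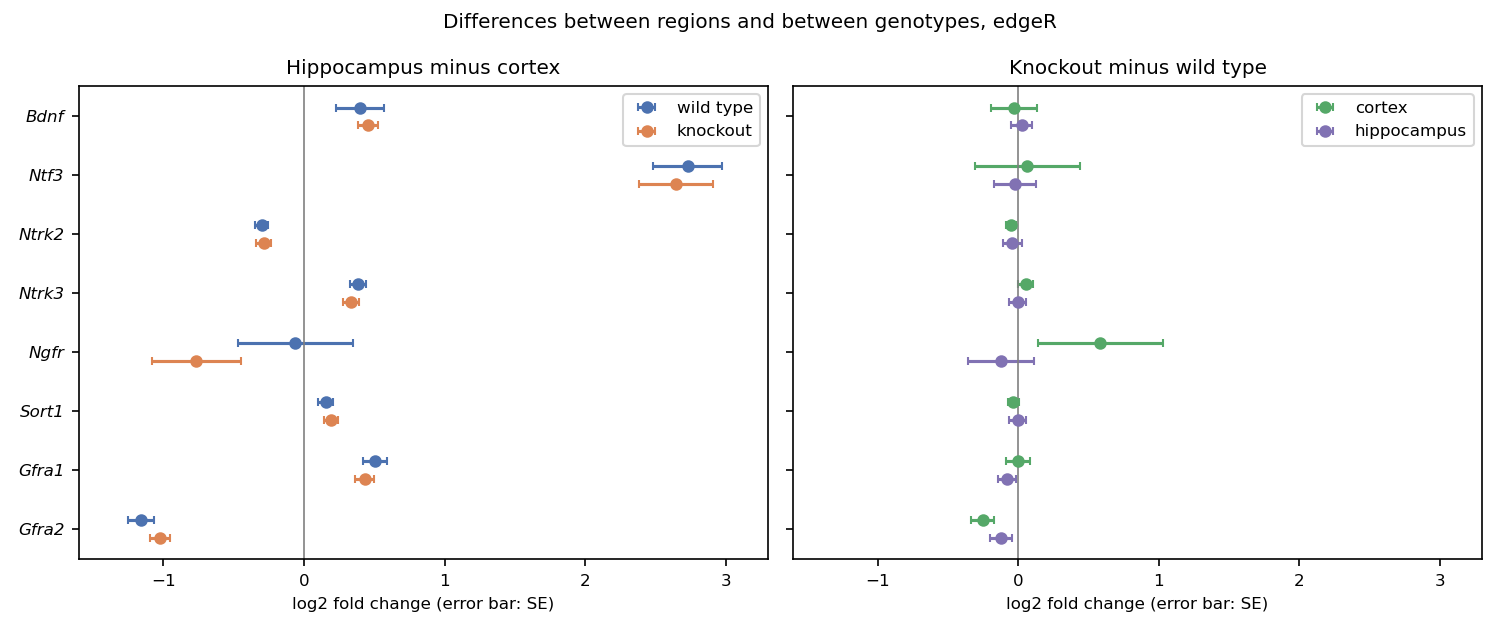
Log2 fold change with its SE for each of the 8 genes, hippocampus over cortex within each genotype (left) and knockout over wild type within each region (right), on the same horizontal scale. Regional differences reach 2.73 for Ntf3 and -1.16 for Gfra2, while the genotype values farthest from zero are 0.59 for Ngfr and -0.25 for Gfra2, both in cortex.

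Because scaling of libraries does not enter it, the ratio of 2 members within a library was also compared, as the log2 ratio of their counts, for 3 pairs and 4 comparisons with an exact permutation test (two-sided, 252 arrangements, smallest possible p 0.00794). The ratio of Gfra1 to Gfra2 was -0.74 ± 0.24 in wild-type cortex, -0.49 ± 0.06 in knockout cortex, 0.92 ± 0.19 in wild-type hippocampus and 0.96 ± 0.15 in knockout hippocampus (SD, n = 5 each). Counts of Gfra2 thus exceeded those of Gfra1 in each cortex library and fell short of them in each hippocampus library. These counts were not divided by exonic length, 5476 bases for Gfra1 and 3539 for Gfra2. Per kilobase the ranges of Gfra1 and Gfra2 overlapped in wild-type hippocampus. The ratio of Ntrk3 to Ntrk2 moved from -3.33 ± 0.13 to -2.64 ± 0.07 between wild-type cortex and hippocampus and from -3.22 ± 0.03 to -2.60 ± 0.21 in knockout (SD, n = 5 each). The ratio of Ntf3 to Bdnf moved from -5.71 ± 0.65 to -3.37 ± 0.40 and from -5.78 ± 0.94 to -3.40 ± 0.16 (SD, n = 5 each). All 6 regional differences had the smallest exact p of 0.00794, adjusted 0.0159 over the 12 comparisons, with no overlap between regions. The ratios were not among the planned comparisons and use the same counts as the gene results above. Separation of the regions follows from those levels, so these p-values are not further support. Of the 6 genotype differences 0 passed. The one with the smallest p was Gfra1 to Gfra2 in cortex, 0.25 higher in knockout (exact p 0.0556, adjusted 0.0953).

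**Figure D4:**
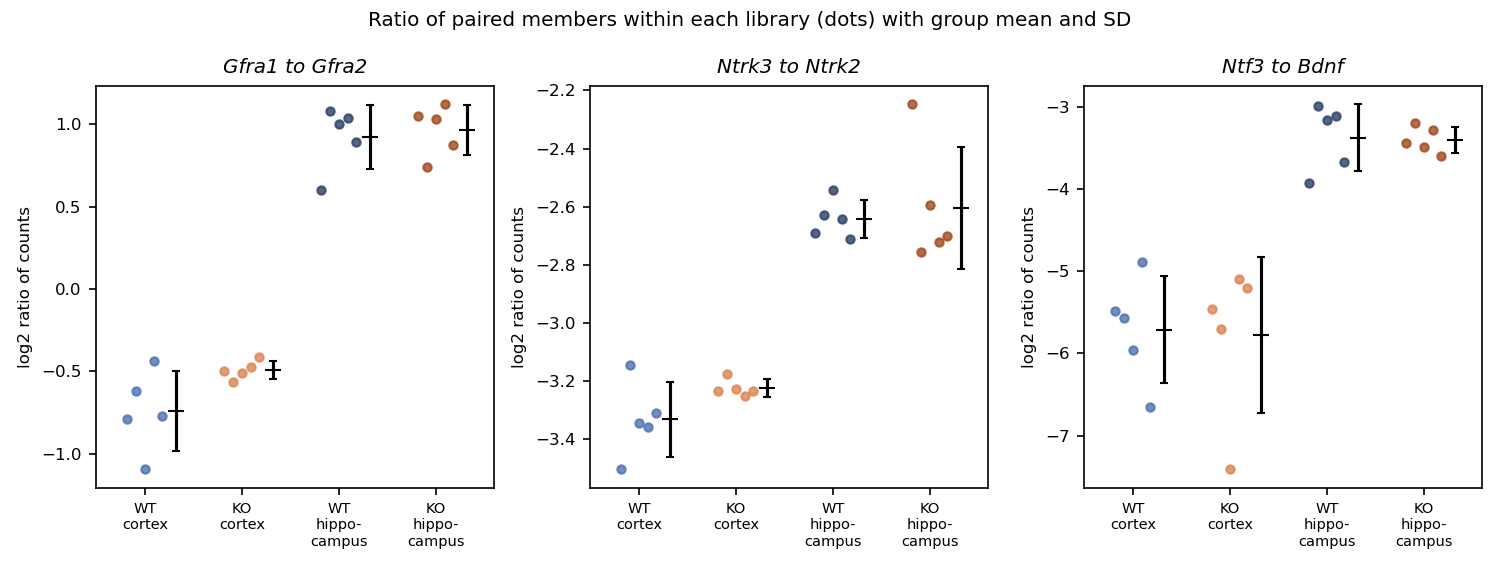
Log2 ratio of the counts of 2 members within each library, 1 dot per library, with group mean and SD (n = 5), for Gfra1 to Gfra2, Ntrk3 to Ntrk2 and Ntf3 to Bdnf. In each panel the hippocampus libraries lie above the cortex libraries of both genotypes. The Gfra1 to Gfra2 ratio, of counts not divided by gene length, crosses zero between regions.

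Levels of different genes were compared per kilobase of exonic sequence (all exons of a gene in GENCODE M21 merged). In wild-type cortex the order was Sort1 (96.3 CPM per kb), Ntrk2 (45.8), Gfra2 (27.2), Gfra1 (10.5), Bdnf (6.82), Ntrk3 (2.92), Ngfr (0.719) and Ntf3 (0.486). The ranges over the 5 libraries overlapped for the neighbours Gfra1 and Bdnf and for Ngfr and Ntf3. In wild-type hippocampus it was Sort1 (108 CPM per kb), Ntrk2 (37.6), Gfra1 (15.1), Gfra2 (12.3), Bdnf (9.08), Ntrk3 (3.85), Ntf3 (3.23) and Ngfr (0.693), with overlap of Gfra1 with Gfra2 and of Ntrk3 with Ntf3. Knockout groups had the same orders. By the longest transcript instead of merged exons, Bdnf (13.2 CPM per kb) came before Gfra2 (12.6) in wild-type hippocampus, and Ntrk2 in wild-type cortex was at 101 CPM per kb, close to the 107 of Sort1.

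The second question was whether loss of Ncs1 changed the 8 genes. In cortex 0 of 8 passed, where 0.0270% of 14823 genes were called, and in hippocampus 0 of 8, where 0.0266% of 15042 were. At an unadjusted p under 0.05 there was 1 of 8 in cortex (Gfra2) and 0 of 8 in hippocampus, beside 14.8% and 3.78% of all genes. DESeq2 and limma-voom also called 0 of 8 in each region. Median log2 fold changes over the 8 genes were -0.02 in cortex and -0.03 in hippocampus, beside 0.0019 and 0.0070 over all genes. The ranges of wild type and knockout overlapped for all 8 genes in both regions, where 2.15% of all genes in cortex (0.978% higher, 1.17% lower) and 0.479% in hippocampus (0.279% higher, 0.199% lower) did not overlap. For the interaction of genotype and region 0 of 8 passed edgeR, with unadjusted p from 0.216 (Ngfr) to 0.965 (Ntrk2), where 0% of 15310 genes were called, 1.4% had an unadjusted p under 0.05, and DESeq2 and limma-voom called 0 of 8.

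Other genes of the pathway were taken from 10 lists by role. Between genotypes edgeR called 0 of 109 such genes in cortex (19 at an unadjusted p under 0.05, where 14.8% of all genes were) and 0 of 108 in hippocampus (2 unadjusted, where 3.78% of all genes were). Over the same lists, members included, DESeq2 made 5 calls in cortex, of 169 over the 14823 genes that passed the filter. It made 0 calls in hippocampus, and limma-voom made 0 in each region. Gdnf, the ligand of GFRA1, was at 1.38 ± 0.367 CPM in knockout cortex (16 to 31 counts a library) and 0.141 ± 0.0556 CPM in knockout hippocampus (2 to 8 counts; SD, n = 5 each). In the knockout comparison of regions Gdnf passed the filter on low counts through the cortex libraries alone, and in the wild-type one it did not pass the filter. Wild-type cortex was at 0.823 ± 0.229 CPM of Gdnf (SD, n = 5, 11 to 21 counts). Between genotypes in cortex Gdnf had a log2 fold change of 0.76 and Nrtn, the other GDNF family ligand tested, -0.91. With edgeR neither passed (unadjusted p 0.0132 and 0.0296, adjusted 0.258 and 0.294), and Nrtn had 1 to 27 counts a library. Ret, the kinase that signals for GFRA1 and GFRA2 and singled out after its values were seen, was at 5.07 ± 1.04 CPM in wild-type cortex and 4.45 ± 0.682 CPM in wild-type hippocampus (SD, n = 5 each) and did not pass (adjusted p 0.315).

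Of the sortilin family, Sorcs1 had the largest regional difference, 59.3 ± 4.22 CPM in wild-type cortex against 14.8 ± 2.92 CPM in wild-type hippocampus (SD, n = 5 each). Its log2 difference was -2.02 (SE 0.11, adjusted p 2.63e-08), with -1.88 (SE 0.08, adjusted p 1.08e-09) in knockout. In wild type 2 of 5 family members were higher (Sort1 and Sorcs2) and 2 lower (Sorcs1 and Sorcs3) in hippocampus. In knockout 1 was higher (Sort1) and 1 lower (Sorcs1). Among 8 tested genes of precursor cleavage, 3 were higher and 1 lower in wild type, and 4 and 1 in knockout. For scale, 18.8% of all tested genes were called higher and 20.7% lower in wild type, and 19.2% and 19.6% in knockout. Plat, the tissue plasminogen activator, and the convertase gene Pcsk6 had log2 fold changes of 0.47 and 0.50 in wild type and 0.38 and 0.40 in knockout. Serpini1, which encodes neuroserpin, an inhibitor of that activator, had -0.45 and -0.47.

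Of 43 Trk adaptors and downstream kinases, 6 were higher and 13 lower in wild-type hippocampus, and 6 and 12 in knockout, with medians of -0.02 and -0.0093. The neuronal adaptor Shc3 was at 417 ± 10.4 CPM in wild-type cortex and 267 ± 11.1 CPM in wild-type hippocampus (SD, n = 5 each). This was a log2 difference of -0.66 (SE 0.04, adjusted p 5.86e-08). Rps6ka3, which encodes the kinase RSK2, and Pik3r1, a regulatory subunit of phosphoinositide 3-kinase, had -1.06 and -0.83. Of 18 reported partners of p75, 4 were higher and 5 lower in wild type, and 5 and 4 in knockout, among them Maged1 at 0.39 and the Rac exchange factor Prex1 at -0.85 in wild type. Of 16 regulators of Bdnf transcription, 4 were higher and 5 lower in each genotype. Mef2c, an activity-dependent transcription factor, had a log2 fold change of -2.36 (SE 0.16, adjusted p 1.72e-07) in wild type and -2.46 (SE 0.11, adjusted p 1.59e-09) in knockout, and Tcf4, a basic helix-loop-helix factor, had 0.73 (SE 0.05, adjusted p 8.92e-08) and 0.79 (SE 0.05, adjusted p 2.41e-08). Over all genes 39.5% and 38.8% were called.

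The genes most like 7 of the members were taken as those with the highest Pearson's r of log2 CPM over the 20 libraries, out of 13670 genes averaging 1 CPM or more in both regions. Region and group are shared by all 20 points, so r is a description, and r of the deviations from group means is given after it. For Bdnf they were Ptgs2 (0.890, deviations 0.795), Nr4a3 (0.881, deviations 0.846) and Tnfaip3 (0.881, deviations 0.794). For Ntf3 they were Gm14569 (0.977, deviations 0.790), Tmem28 (0.976, deviations 0.751) and Sowaha (0.971, deviations 0.700). For Gfra2 they were Lrtm2, Zfp703 and Arhgef10l (0.979 to 0.982, deviations 0.634 to 0.704), for Gfra1 A130010J15Rik, Cyth4 and Vstm2a (0.934 to 0.940, deviations 0.686 to 0.764), for Ntrk2 Ptprf, Mgat5 and Slc2a13 (0.953 to 0.962, deviations 0.802 to 0.845) and for Ntrk3 Camk2b, Nfia and Zbtb20 (0.943 to 0.950, deviations 0.679 to 0.710). Ngfr had the loosest neighbours, Dgkk (0.751, deviations 0.824), Slc6a11 (0.735, deviations 0.808) and Eif2ak2 (0.726, deviations 0.679), and r of the deviations exceeded r over all libraries for 2 of these 3 genes.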

How the data were processed

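RNA-seq of 20 libraries was analysed, grouped by title. The authors deposited expected counts, 1 table per region, made with STAR 2.7.3a and Partek on build mm10, per the submitters' processing notes. Annotation, strand setting and filters were not given in the sources used here. In GENCODE M21 antisense models overlap exons of Bdnf, Sort1 and Gfra1, so without a known strand setting their reads cannot be told apart. After rounding, edgeR 4.0.16 in R 4.3.3 was run (filterByExpr, TMM, quasi-likelihood test, Benjamini-Hochberg at 0.05 over all tested genes). DESeq2 1.42.0, limma 3.58.1, other scalings and filters, and leaving out each library were alternatives. Each SE is the absolute log2 fold change over the square root of F. For log2 levels the prior count was 2, and correlations had 100000 permutations. Regions were compared over genes listed in both tables. Methods were tested on simulated counts. All 8 members are described. From each pathway list and comparison, up to 3 called genes of smallest adjusted p could be named, and per member the 3 genes of highest correlation. The members and lists were chosen with earlier results of these data known. Some pathway, marker and correlated genes are not reported here, and the lists were recomputed without the first 2 kinds.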

Additional observations from a re-analysis of the deposited data

Results flagged for a closer look

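For each of the 8 genes and 4 groups the highest and lowest of the 5 libraries were checked for a gap to the nearest other library above 0.71 of the group's range (Dixon's 95% limit), and 2 of 32 sets had one, where chance alone flags about 1 in 20. Ngfr was at 6.48 CPM in wild-type cortex replicate 4, a gap of 0.872 of the range. Ngfr was also at 2.83 CPM in wild-type hippocampus replicate 4, a gap of 0.812 of the range in a group that otherwise spanned little. That library was also the wild-type hippocampus library highest in Ttr, at 2000.1 CPM.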

How the results depend on the processing

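The count of members called between genotypes and for the interaction was 0 under every alternative run, and the regional counts ranged from 5 to 7 in wild type and from 7 to 8 in knockout. Between regions the main fits called 39.5% of all genes in wild type and 38.8% in knockout. Regional shares under the alternatives are not given here, so a change in these counts is no result about the members. Over all genes the cortex genotype count was 4, against 169 with DESeq2, 7 with all libraries in one fit and 4 to 563 with 1 library left out, the highest without wild-type cortex replicate 5. The hippocampus count of 4 became 0 without the 3 libraries highest in Ttr, and the interaction count of 0 became 1 with DESeq2 and 0 to 1 with 1 library left out. The cause was not tested.

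These log2 values changed sign. For genotype in cortex, Gfra1 was 0.00068 with total-count scaling and 0.0012 with limma-voom, where Bdnf was 0.030 and Ntf3 -0.020. For genotype in hippocampus, total-count scaling gave Ntrk3 0.0045 and Sort1 0.0056, and leaving out the 3 libraries gave Bdnf -0.028, Ntrk3 0.064 and Sort1 0.025. The regional value of Ngfr in wild type was 0.28 with limma-voom. Interaction values were -0.0022 for Bdnf, 0.0045 for Ntf3 and -0.00060 for Ntrk2 with limma-voom, and -0.011 for Ntrk2 and 0.011 for Ntrk3 without the 3 libraries.

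With 1 library left out, genotype values in cortex ranged from -0.16 to 0.13 for Bdnf, -0.18 to 0.30 for Ntf3 and -0.061 to 0.068 for Gfra1. In hippocampus they ranged from -0.038 to 0.058 for Bdnf, -0.12 to 0.067 for Ntf3, -0.051 to 0.029 for Ntrk3, -0.36 to 0.0077 for Ngfr and -0.043 to 0.022 for Sort1. The wild-type regional value of Ngfr ranged from -0.25 to 0.68. Interaction values ranged from -0.11 to 0.18 for Bdnf, -0.33 to 0.15 for Ntf3, -0.021 to 0.050 for Ntrk2 and -0.012 to 0.052 for Sort1. Ratio differences between genotypes ranged from -0.039 to 0.10 for Gfra1 to Gfra2, -0.051 to 0.076 for Ntrk3 to Ntrk2 and -0.17 to 0.067 for Ntf3 to Bdnf in hippocampus, and from -0.30 to 0.35 for Ntf3 to Bdnf in cortex.

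Replicate numbers were tried as a replicate block, although no label says that a number marks a shared animal and not every same-numbered pair deviated together: correlations of deviations ran from 0.0846 to 0.372 between regions in wild type, where each library was most like its own number, a hint from the data and not the design, and from -0.143 to 0.186 in knockout. A wild-type and a knockout library cannot share an animal, so between genotypes the number marks no known pair. Correlations there ran from -0.063 to 0.143 in cortex and from -0.0041 to 0.296 in hippocampus. With the block 0 members were called between genotypes and for the interaction, 7 between regions in wild type and 8 in knockout. The share of all genes called with the block is not given here, so these regional counts are no result about the members. Bdnf in wild type (0.44, adjusted p 0.00729) and Ngfr in knockout (-0.75, adjusted p 0.0439) were called with the block. In cortex the genotype values with the block were 0.0091 for Bdnf and 0.0024 for Gfra1, and the wild-type regional value of Ngfr was 0.14. Depth limits Ntf3 in cortex most, with 5 to 27 counts a library.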
